A study of Mus musculus with 15 samples.

Results

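The chromatin of 10 imprinted genes, H19, Igf2, Meg3, Dlk1, Peg3, Snrpn, Airn, Kcnq1ot1, Plagl1 and Gnas, was examined in EL4 cells. The genes were chosen by name, and each was given a window that holds its RefSeq span on the mouse build GRCm38 and 10 kb on each side. They are 10 of 47042 RefSeq genes on the autosomes, which served as the background. EL4 is a murine T cell lymphoma line (ATCC TIB-39), labelled as C57BL/6N, and the cells used here were untreated. The files are lists of intervals called from ATAC-seq, which maps chromatin open to a transposase, and from ChIP-seq for the active marks H3K4me3, H3K9ac and H3K27ac and the broad marks H3K27me3 and H3K36me2. Each of these sets has 2 replicate libraries, which gives 12 lists from 15 samples. The input and the RNA-seq samples were not analysed here.

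Imprinted genes are expressed mainly from the maternal or from the paternal allele. The choice is set by DNA methylation that differs between egg and sperm at control regions, and it is often carried out by long noncoding RNAs or by insulator binding. H3K4me3, H3K9ac and H3K27ac are known for active promoters and enhancers, H3K27me3 for Polycomb repression, and H3K36me2 for broad domains within and between genes. Both parental copies of an inbred strain have the same sequence, and the lists give positions only. Alleles could not be told apart, and neither could a mark on one allele and a mark in a fraction of the cells.

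In the 12 lists, 3 of the 10 genes had the active marks H3K4me3, H3K9ac and H3K27ac together with ATAC-seq intervals in both replicates. These were Airn and Kcnq1ot1, paternally expressed antisense long noncoding RNAs, and Gnas, which encodes the stimulatory G protein alpha subunit. H3K27me3 lay in both replicates in the windows of Plagl1, Meg3 and, at the far end only, Airn. Broad H3K36me2 covered much of the Airn window and part of the Kcnq1ot1 window. No list held an interval in the windows of H19, Peg3 and Snrpn.

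The promoter sequences below show the DNA at the starts on which these patterns turn: 3 active starts among the chosen genes, the active start of Igf2r, which lies inside the Airn window, and 2 starts with no interval of any list. Each is the RefSeq sequence of GRCm38.p6 from 250 bases before to 50 bases after the start, on the strand of the gene, and capitals mark CpG dinucleotides. They lie at chr17:12741061-12741360 on the plus strand (Airn), chr7:143296498-143296797 on the minus strand (Kcnq1ot1), chr2:174329756-174330055 on the plus strand (Gnas), chr17:12769657-12769956 on the minus strand (Igf2r), chr10:13090582-13090881 on the plus strand (Plagl1) and chr7:6730370-6730669 on the minus strand (Peg3).
Airn: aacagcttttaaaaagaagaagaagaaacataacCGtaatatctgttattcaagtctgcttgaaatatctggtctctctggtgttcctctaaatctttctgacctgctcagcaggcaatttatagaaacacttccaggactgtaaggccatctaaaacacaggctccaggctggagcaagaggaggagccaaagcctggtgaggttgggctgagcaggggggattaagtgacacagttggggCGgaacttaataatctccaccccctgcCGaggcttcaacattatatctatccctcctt
Kcnq1ot1: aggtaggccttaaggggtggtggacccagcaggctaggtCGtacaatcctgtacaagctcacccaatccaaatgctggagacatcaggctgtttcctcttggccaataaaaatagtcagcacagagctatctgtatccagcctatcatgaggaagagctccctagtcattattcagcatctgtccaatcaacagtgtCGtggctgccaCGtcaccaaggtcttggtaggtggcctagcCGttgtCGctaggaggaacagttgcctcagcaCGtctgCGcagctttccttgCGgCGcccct
Gnas: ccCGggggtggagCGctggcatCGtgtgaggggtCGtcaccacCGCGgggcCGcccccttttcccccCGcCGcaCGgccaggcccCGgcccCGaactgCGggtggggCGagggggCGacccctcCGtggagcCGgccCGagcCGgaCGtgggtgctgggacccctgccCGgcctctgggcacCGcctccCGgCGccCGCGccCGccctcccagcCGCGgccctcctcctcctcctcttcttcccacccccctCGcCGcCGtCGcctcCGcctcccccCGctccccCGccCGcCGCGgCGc
Igf2r: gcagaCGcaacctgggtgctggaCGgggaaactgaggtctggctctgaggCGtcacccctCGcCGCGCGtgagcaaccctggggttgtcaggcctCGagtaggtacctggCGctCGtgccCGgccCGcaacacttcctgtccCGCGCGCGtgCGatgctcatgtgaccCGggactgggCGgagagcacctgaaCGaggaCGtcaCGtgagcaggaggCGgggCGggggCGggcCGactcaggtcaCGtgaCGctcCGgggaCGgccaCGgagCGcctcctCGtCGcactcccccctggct
Plagl1: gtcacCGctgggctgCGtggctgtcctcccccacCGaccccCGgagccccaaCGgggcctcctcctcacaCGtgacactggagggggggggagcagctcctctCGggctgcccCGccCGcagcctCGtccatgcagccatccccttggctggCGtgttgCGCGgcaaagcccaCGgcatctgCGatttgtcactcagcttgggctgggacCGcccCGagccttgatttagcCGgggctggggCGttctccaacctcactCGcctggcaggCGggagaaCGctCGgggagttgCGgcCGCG
Peg3: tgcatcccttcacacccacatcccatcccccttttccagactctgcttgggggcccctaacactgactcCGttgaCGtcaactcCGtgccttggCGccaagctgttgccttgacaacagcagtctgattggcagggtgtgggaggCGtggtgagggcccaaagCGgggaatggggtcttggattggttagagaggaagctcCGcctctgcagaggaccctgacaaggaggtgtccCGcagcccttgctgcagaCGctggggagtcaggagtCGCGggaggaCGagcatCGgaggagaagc

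The RefSeq table held 19 starts of these genes, of which 5 had H3K4me3 in both replicates within the start region (3 kb upstream to 2 kb downstream). The 5 marked starts held 3 (Airn), 9 (Kcnq1ot1), 27, 28 and 40 CpG (Gnas), with a median of 27. The 3 Gnas starts lay in a single H3K4me3 interval, and 2 of their sequences overlapped, so this median rests mainly on 1 gene. The 14 unmarked starts held 1 to 26 CpG with a median of 8. All starts above 26 were thus marked, and all of them belonged to Gnas, while Airn and Kcnq1ot1 lay within the range of the unmarked ones. The Airn promoter held 3 CpG in 300 bases and 45.7% G and C, and Kcnq1ot1 held 9 CpG and 53.3%. Of the other sequences printed, Igf2r, which was marked, held 34 CpG, and the unmarked Peg3 start held 13. Plagl1, with no interval at its start, had the most CpG of the unmarked starts, 26, more than 82.6% of the 31396 promoters in the RefSeq table. Over all those promoters, H3K4me3 in both replicates was found at 6.73% of starts with 0 to 3 CpG, 16.7% of those with 4 to 7, 50.5% of those with 8 to 21 and 74.0% of those with 22 to 67. By this count, Airn belonged to the class of promoters in which the mark was least frequent, and Plagl1 to the class in which it was most frequent. CpG were counted only in the 300 bases around each start, and the mark in the wider start region. At Airn and Kcnq1ot1 most of the H3K4me3 interval lay downstream of the counted bases, where CpG were not counted. The motif TGCCGC, the core recognised by ZFP57 when methylated, was searched on both strands. Among the 19 promoter windows of these genes it occurred in 1 each of Igf2, Meg3, Snrpn and Plagl1, and among all promoters in 11.6%. The YY1 motif AANATGGCG had no match on either strand in the promoter windows of the chosen genes, against 2.35% of all promoters with one. The table held starts for 9 of the 10 genes, without H19.

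**Figure D1:**
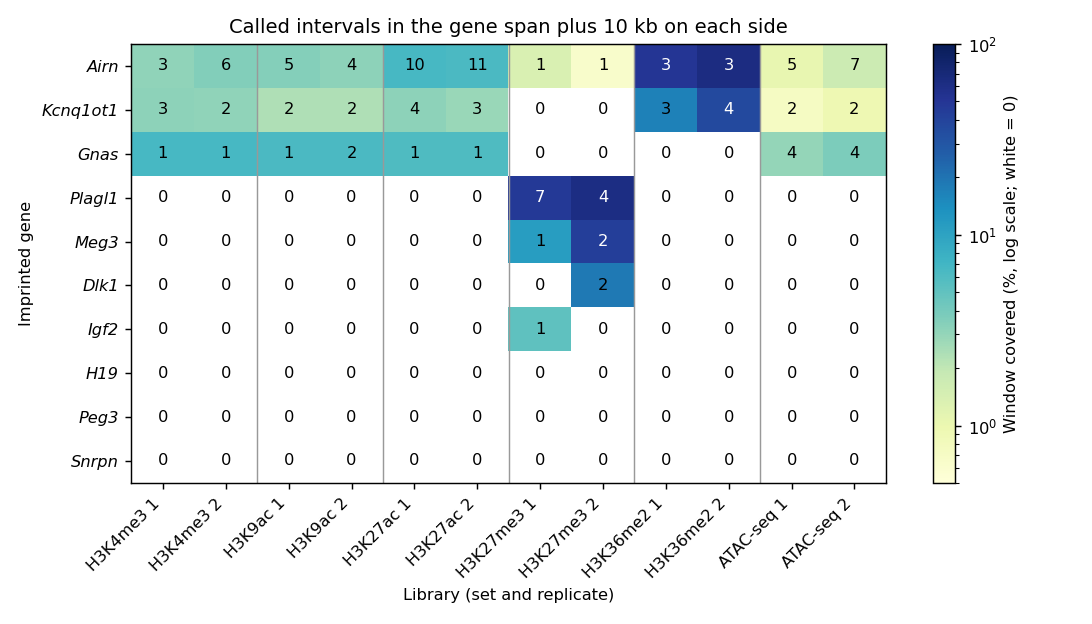
Number of called intervals (digits) and percent of the window covered (colour, log scale) for 10 imprinted genes (vertical axis) in 12 libraries (horizontal axis, set and replicate number). Airn, Kcnq1ot1 and Gnas carry the active marks and ATAC-seq, Plagl1, Meg3, Dlk1 and Igf2 carry H3K27me3 in at least 1 replicate, and H19, Peg3 and Snrpn have 0 intervals in all 12 libraries.

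Read against all autosomal genes, the count of 3 of 10 was not high for any active mark. Windows with an interval in both replicates were those of 38.8% of genes with H3K4me3, 35.2% with ATAC-seq, 37.4% with H3K9ac and 39.1% with H3K27ac. H3K27me3 was found in 3 of 10 windows against 24.2% of genes, and H3K36me2 in 2 of 10 against 40.2%. Near an annotated start, from 3 kb upstream to 2 kb downstream, H3K4me3, H3K9ac, H3K27ac and ATAC-seq each marked the same 3 genes of the 9 with a start, against 36.6%, 36%, 36.6% and 32.7% of genes. H3K27me3 lay at the start of 0 of 9 genes (11.4% of all) and H3K36me2 at that of 1 of 9 (24.2%), which was Airn. Of the 6 protein-coding members, the active sets marked the start of 1, Gnas, whereas among all protein-coding genes H3K4me3 was at 47.7% of starts, H3K9ac at 47.1%, H3K27ac at 47.3%, ATAC-seq at 43.3%, H3K36me2 at 27.9% and H3K27me3 at 10.4%. With 10 genes and 2 libraries per set, no test of these shares was made.

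The share of base pairs covered, pooled over the 10 windows, turned on the Snrpn window, which had no interval and made up 487.683 kb of 1059.805 kb (46.0%). H3K4me3 covered 1.23% and 1.28% of the member windows in replicates 1 and 2, against 1.60% and 1.57% of all gene windows. For H3K9ac the values were 1.17% and 1.14% against 1.38% and 1.37%, and for H3K27ac they were 1.65% and 1.58% against 1.75% and 1.78%. ATAC-seq covered 0.443% and 0.606%, against 0.493% and 0.564%, so the replicates lay on either side of the background. H3K27me3 covered 3.60% and 6.25% of the windows (4.92% ± 1.87, SD, n = 2), against 10.8% and 12.4% of all gene windows. H3K36me2 covered 8.22% and 11.7% (9.97% ± 2.48, SD, n = 2), against 17.6% and 17.5%. Without the Snrpn window, an alternative added after the data were seen, the active sets went from near or below the background to above it. H3K4me3 then covered 2.27% and 2.37%, H3K9ac 2.17% and 2.11%, H3K27ac 3.05% and 2.92%, and ATAC-seq 0.821% and 1.12%. H3K27me3 covered 6.67% and 11.6%, below the background of the same replicate, and H3K36me2 covered 15.2% and 21.7%, on either side of it. H3K27me3 thus lay below the background in both replicates with and without Snrpn, a difference for which no test was made. The pooled shares of the other sets give no direction for the imprinted genes as a group.

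Airn (chr17:12741311-12859884, plus strand) is the noncoding RNA that runs antisense to Igf2r, the gene of the receptor that clears insulin-like growth factor 2, and is required for the silencing of Igf2r on the paternal allele. An H3K4me3 interval lay over its start in both replicates, at chr17:12741168-12743184 (2017 bp) and chr17:12741044-12743143 (2100 bp). H3K9ac intervals of 1577 bp and 1375 bp covered the start too, and H3K27ac intervals of 1393 bp in both replicates began 12 and 13 bp after it. ATAC-seq intervals of 301 bp and 399 bp covered the start, and a second pair of 343 and 353 bp lay 1251 and 1242 bp into the gene. All 4 active sets therefore marked the Airn start in both replicates.

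The Igf2r start, 28.4 kb into Airn on the other strand, was marked as well. H3K4me3 covered it in intervals of 1844 bp and 1712 bp, H3K9ac in 1335 bp and 1772 bp, and H3K27ac in 1628 bp and 1429 bp. An ATAC-seq interval there (301 bp) was found in replicate 2 only. Both promoters of this antisense pair thus carried H3K4me3 and both acetylations in the same cell population, and which allele carried which could not be told.

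Where intervals of the active sets were joined across gaps of up to 1 kb, a rule chosen after the values were seen, the Airn window held 8 sites. Their centres lay at -6.78, 0.803, 4.44, 13.3, 16.9, 27.8, 42.2 and 51.0 kb from the Airn start. The site farthest into Airn was the longest, 4.257 kb, with 3 and 2 H3K27ac intervals, 1 H3K9ac and 1 ATAC-seq interval in each replicate and no H3K4me3. The site at 4.44 kb held 2 and 3 H3K27ac intervals and 1 ATAC-seq interval in each replicate, without H3K4me3 or H3K9ac. In total H3K27ac had 10 and 11 intervals over 9.181 and 8.814 kb in this window, H3K9ac 5 and 4 over 4.807 and 4.459 kb, H3K4me3 3 and 6 over 4.289 and 4.905 kb, and ATAC-seq 5 and 7 over 1.475 and 2.371 kb. More of the window was thus under H3K27ac than under H3K4me3 in both replicates.

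**Figure D2:**
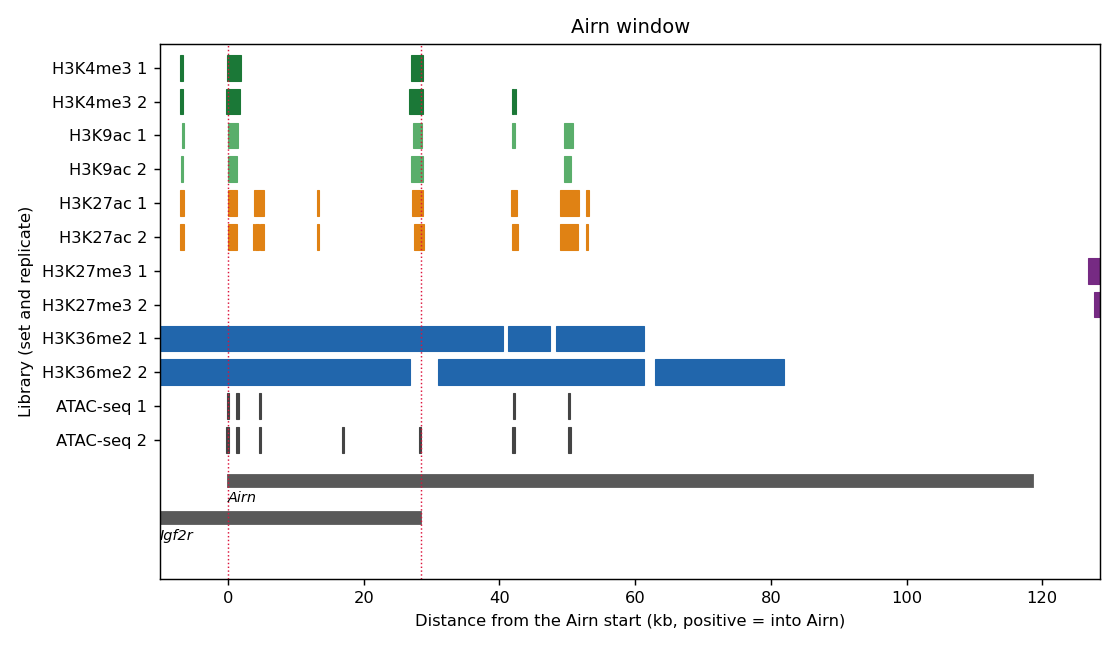
Called intervals in the Airn window by library (rows, set and replicate number) against the distance from the Airn start in kb (horizontal axis); bars below are gene spans cut at the window edge and dotted lines are the starts of Airn and Igf2r. H3K4me3 and both acetylations stand at both starts, H3K36me2 runs beneath them with a gap at the Igf2r start in replicate 2, and H3K27me3 appears only at the far right edge.

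Active marks and H3K36me2 occurred together over Airn and Igf2r. H3K36me2 covered 69.687 kb (50.3%) of the Airn window in replicate 1 and 86.287 kb (62.3%) in replicate 2. The interval over the Airn start was 73199 bp long in replicate 1 (chr17:12708601-12781799) and 94399 bp in replicate 2 (chr17:12673801-12768199), and only 0.113% and 0.0392% of the H3K36me2 intervals in the respective lists were wider. Of the base pairs found in both replicates, H3K36me2 shared 2389 of 4163 bp of H3K4me3 (57.4%), 2632 of 3967 bp of H3K9ac (66.3%) and 6810 of 8188 bp of H3K27ac (83.2%). Such a contact between an active mark and H3K36me2 was found in 1 of the 10 windows, against 16.0% of all genes, and both kinds of mark were present somewhere in 2 of 10 windows, against 31.6%.

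The replicates differed at the Igf2r start. In replicate 1 all 3 H3K4me3, 5 H3K9ac, 10 H3K27ac and 5 ATAC-seq intervals lay within H3K36me2 over 100% of their length. In replicate 2 the shares were 63.4%, 60.3%, 83.8% and 87.3%, with 5 of 6, 3 of 4, 10 of 11 and 6 of 7 intervals in contact. The intervals without contact stood at the Igf2r start, in a gap of H3K36me2 between positions 12768199 and 12772201. The same break was not present in replicate 1, and its cause was not tested.

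H3K27me3 in the Airn window was confined to the last 10 kb, beyond the end of the gene. The interval began at chr17:12868001 in replicate 1 and chr17:12869001 in replicate 2 and reached past the window edge, so that 1.884 and 0.884 kb were counted. The start of Mas1, which encodes a G protein-coupled receptor, lies at position 12868143. Inside the window, the nearest base pairs of an active mark found in both replicates were 74.586 kb away for H3K27ac, 77.117 kb for H3K9ac and 98.966 kb for H3K4me3. Active marks beyond the window edge lay closer, with H3K4me3 46799 and 46718 bp and H3K27ac 47034 and 47068 bp from the Mas1 start. Airn was the 1 gene of 10 with an active mark and H3K27me3 in the same window in both replicates (5.25% of all genes), and no window held both kinds in contact (0.304% of all genes). The joint occurrence at Airn thus came from separate ends of a window of 138.574 kb.

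Kcnq1ot1 (chr7:143213111-143296547, minus strand) is transcribed from within Kcnq1, the gene of a potassium channel subunit, and silences neighbouring genes on the paternal allele. H3K4me3 covered its start from 143293813 to 143296632 in replicate 1 (2820 bp) and from 143293699 to 143296652 in replicate 2 (2954 bp). H3K9ac intervals of 2171 and 2180 bp and H3K27ac intervals of 2055 and 2188 bp lay within these. ATAC-seq intervals of 533 and 610 bp also held the start. A second, smaller interval lay upstream in each of the 3 active marks in both replicates, for H3K4me3 with 223 and 269 bp. Of the base pairs in either replicate, a share of 0.884 was found in both for H3K4me3, 0.986 for H3K9ac, 0.770 for ATAC-seq and 0.646 for H3K27ac.

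At both noncoding RNAs most of the H3K4me3 interval lay on the transcribed side. At Kcnq1ot1, 85 and 105 bp lay before the start and 2735 and 2849 bp from the start on, so 97.0% and 96.4% of the interval was downstream. At Airn the corresponding values were 143 and 267 bp before and 1874 and 1833 bp after, or 92.9% and 87.3%. Over the 10139 and 10128 starts held by an H3K4me3 interval in replicates 1 and 2, the median share downstream was 61.0% and 60.8%. Only 0.809% and 0.810% of those starts had a share at or above that of Kcnq1ot1, and 2.44% and 5.98% at or above that of Airn. Igf2r, a protein-coding gene, also lay above the median, with 80.6% and 80.8%, and 12.5% and 12.2% of starts were at or above it. This measure was added after the data were seen, and the upstream interval next to Kcnq1ot1 is not part of it.

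H3K36me2 lay inside Kcnq1ot1 but not at its start. It covered 17.397 kb (16.8% of the window) in 3 intervals in replicate 1 and 37.996 kb (36.7%) in 4 intervals in replicate 2, with 0.413 of the base pairs in either replicate found in both. The interval nearest to the start ended 4548 bp and 4748 bp from it. Between the base pairs found in both replicates, the gap to H3K36me2 was 1.899 kb for H3K4me3, 2.618 kb for H3K9ac and 2.747 kb for H3K27ac. At a site centred 11.4 kb into the gene, an ATAC-seq interval (215 and 361 bp) stood within H3K36me2 in both replicates, beside H3K27ac intervals of 410 and 414 bp in replicate 1 and 264 bp in replicate 2. These H3K27ac intervals touched H3K36me2, but they shared no base pair between replicates. H3K27me3 was not called in this window, and its nearest intervals were 35.1 and 29.9 kb outside the gene.

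Gnas (chr2:174284320-174346744, plus strand) is a complex locus with several promoters, among them ones used from the maternal, the paternal or both alleles. A single block of active chromatin held 3 of its 4 starts in the table. H3K4me3 covered chr2:174326264-174331703 (5440 bp) in replicate 1 and chr2:174326329-174331775 (5447 bp) in replicate 2. H3K27ac spanned 5004 and 4963 bp, and H3K9ac spanned 5183 bp in replicate 1 and 4882 bp with a further 308 bp in replicate 2. This was a wide block, as 0.721% and 0.656% of the H3K4me3 intervals, 0.769% and 0.842% of the H3K27ac intervals and 0.429% and 0.444% of the H3K9ac intervals were wider. The replicates shared 0.975, 0.971 and 0.991 of the base pairs in either for H3K4me3, H3K9ac and H3K27ac.

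ATAC-seq resolved the Gnas block into separate sites. Intervals of 868 and 918 bp held the starts at 174327749 and 174327768, and intervals of 512 and 1601 bp held the start at 174330006, whose promoter is printed above. A further ATAC-seq interval of 332 and 365 bp, centred 14.2 kb downstream of that start, carried none of the 5 histone marks. The most upstream Gnas start, at 174284320, had no interval of any set nearby, and the nearest H3K4me3 was 41944 and 42009 bp away. Gnasas1, the antisense RNA that overlaps this upstream start, had no interval of any list in its own window. Neither broad mark was called in the Gnas window, with H3K36me2 87.7 and 87.5 kb and H3K27me3 371 and 426 kb outside the gene. Of the 3 members with active marks, Gnas was the one without a broad mark.

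**Figure D3:**
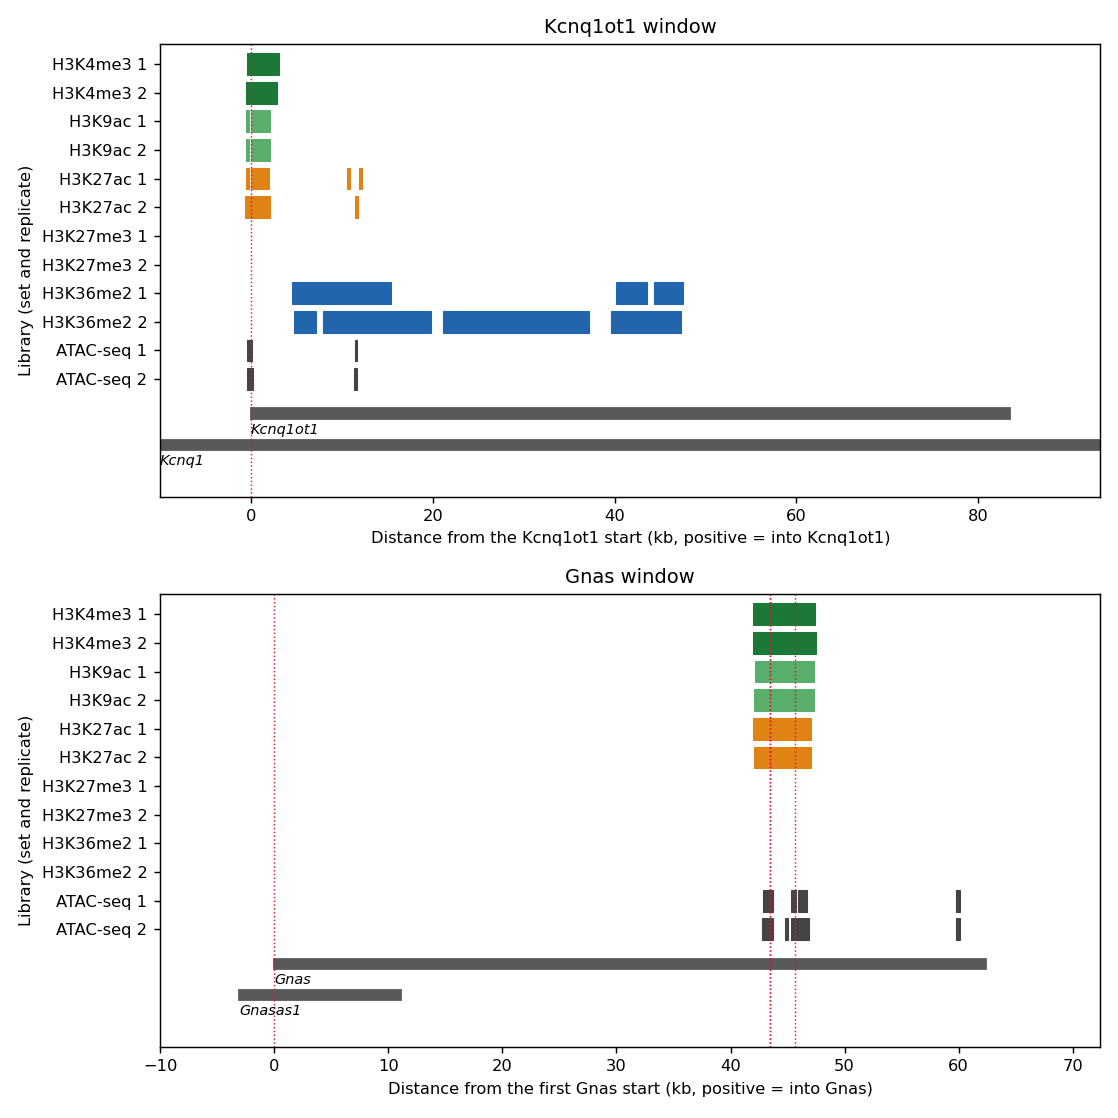
Called intervals in the Kcnq1ot1 window (upper panel) and the Gnas window (lower panel) by library (rows, set and replicate number) against the distance from the start in kb along the direction of transcription; bars below are gene spans and dotted lines are starts. At Kcnq1ot1 the active sets stand at the start and H3K36me2 begins more than 4 kb inside the gene, and at Gnas all active sets form a block over 3 of 4 starts with 0 intervals of H3K27me3 and H3K36me2.

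Plagl1 (chr10:13090832-13131694, plus strand), which encodes a zinc finger transcription factor and is paternally expressed, carried the most H3K27me3. There were 7 intervals over 28.857 kb (47.4% of the window) in replicate 1 and 4 intervals over 37.460 kb (61.5%) in replicate 2. Of the 42.06 kb under the mark in either replicate, 24.257 kb were shared (0.577). The start itself was spared. In both replicates the mark ended at position 13086999, 3833 bp before the start, and resumed at 13099801, 8969 bp after it, which left the same gap of 12.801 kb. No active mark, ATAC-seq or H3K36me2 interval lay in the window, and the nearest H3K4me3 was 60.5 kb outside the gene in both replicates. The CpG-rich Plagl1 start was therefore without a called interval of any of the 6 sets.

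Meg3 and Dlk1 are neighbours on chromosome 12, the first a maternally expressed noncoding RNA and the second a paternally expressed gene for a transmembrane protein of the Notch ligand family. At Meg3 (chr12:109540996-109571729, plus strand), H3K27me3 covered 5.599 kb in replicate 1 (11.0%), at chr12:109556001-109561599, and 22.133 kb in replicate 2 (43.6%), from intervals at chr12:109530401-109534999 and chr12:109563601-109586999. The replicates had 0 bp in common, so that the window counts as marked in both while no base pair was. At Dlk1 (chr12:109452485-109463336, plus strand), 2 intervals of replicate 2 covered 5.735 kb (18.6%) downstream of the gene, and replicate 1 had none. The differences between replicates at this locus were larger than the values themselves in replicate 1. Outside the window, 14.2 kb upstream of Dlk1 in both replicates, H3K4me3 and ATAC-seq intervals were found. The nearest H3K9ac lay 14.428 and 14.453 kb upstream, and the nearest H3K27ac 14.385 and 11.157 kb.

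**Figure D4:**
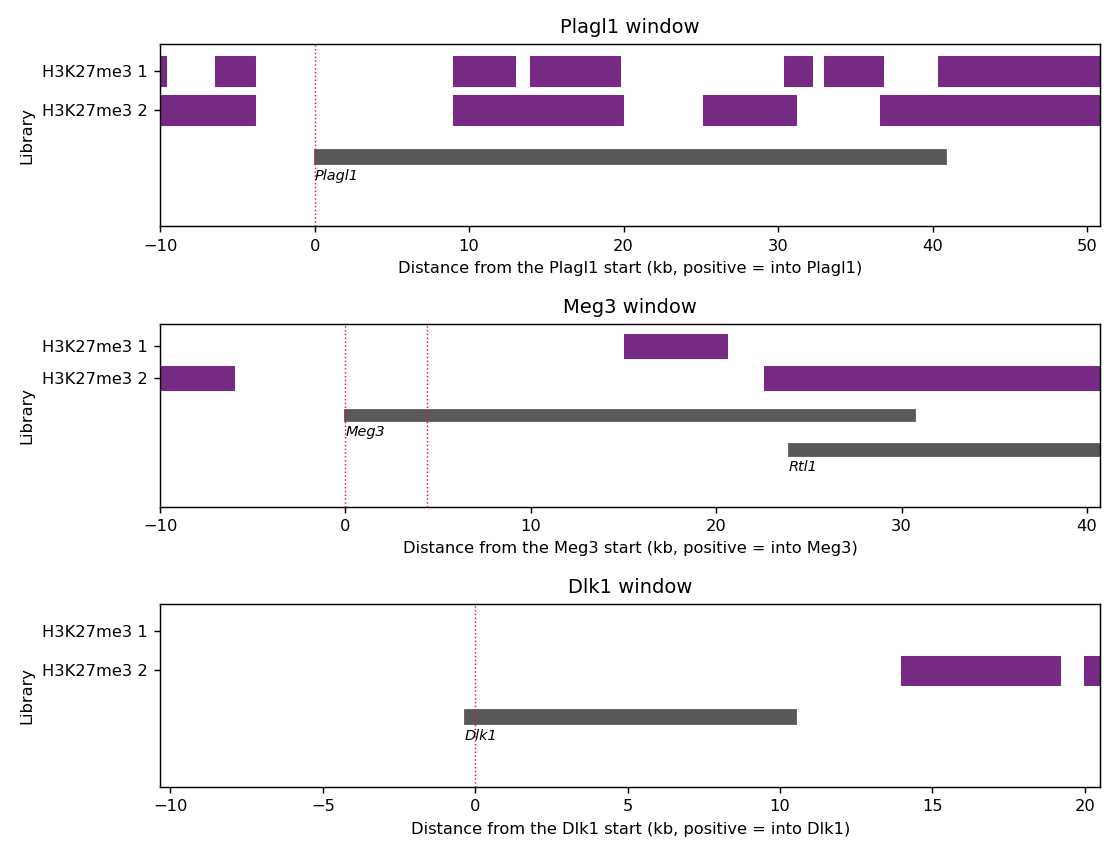
H3K27me3 intervals of both replicates (rows) in the windows of Plagl1, Meg3 and Dlk1 against the distance from the start in kb (horizontal axes), with gene spans as bars below and starts as dotted lines. The gap around the Plagl1 start has the same edges in both replicates, the Meg3 intervals share 0 bp between replicates, and Dlk1 has intervals in replicate 2 only.

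Igf2 and H19 share enhancers downstream of H19 and are expressed from opposite alleles, Igf2 as a paternally expressed fetal growth factor and H19 as a maternally expressed noncoding RNA. At Igf2 (chr7:142650768-142666816, minus strand) the only interval was H3K27me3 in replicate 1, which took 1.832 kb (5.08%) at the edge of the window. H19 (chr7:142575530-142578146) had no interval in any library. The nearest H3K4me3 was 41.2 kb from H19 in both replicates and 116 kb from Igf2. Neither gene had a called active mark or accessible site within 10 kb.

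Peg3 (chr7:6703892-6730462, minus strand), a paternally expressed gene for a zinc finger protein, had none either. Its promoter faces that of Usp29 on the other strand, which was likewise without an interval at its start. The nearest H3K4me3 interval was 210.5 kb from the Peg3 span in both replicates, and H3K9ac, H3K27ac and ATAC-seq intervals were 390 kb away. Snrpn (chr7:59982495-60450177, minus strand), which encodes a spliceosomal protein and shares its transcript with Snurf, had 0 intervals over a window of 487.683 kb, with the nearest H3K4me3 752 kb away in both replicates. Windows without an interval of any list were 3 of 10 here and 23.9% of all autosomal genes.

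A list of 52 other imprinted genes, of which 51 matched the RefSeq table, gave window shares near those of all genes for the active sets, but a lower share for ATAC-seq at the start. H3K4me3 was found in both replicates in 22 of 51 windows (43.1%), H3K9ac and H3K27ac in 20 (39.2%) and ATAC-seq in 18 (35.3%). At the start, H3K4me3 marked 13 of 39 genes (33.3%), among them Igf2r, Ube3a, Mkrn3, Blcap and Commd1, and H3K9ac and H3K27ac also marked 13. ATAC-seq marked the start of 8 of 39 (20.5%), against 32.7% of all genes. H3K36me2 was found in 23 windows (45.1%), against 40.2% of all genes. H3K27me3 was found in 20 windows (39.2%), above the 24.2% of all genes and the 3 of 10 of the genes described here, a difference for which no test was made. Some of these genes are neighbours with overlapping windows, such as Sgce and Peg10 or Rtl1 and Rian. The 20 windows are therefore not separate observations. At the start, H3K27me3 lay in 6 of 39 genes (15.4%), which were Mest, Grb10, Slc38a4, Zdbf2, Asb4 and Ddc. The share of all genes was 11.4%, and the count of the genes described here was 0 of 9.

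**Figure D5:**
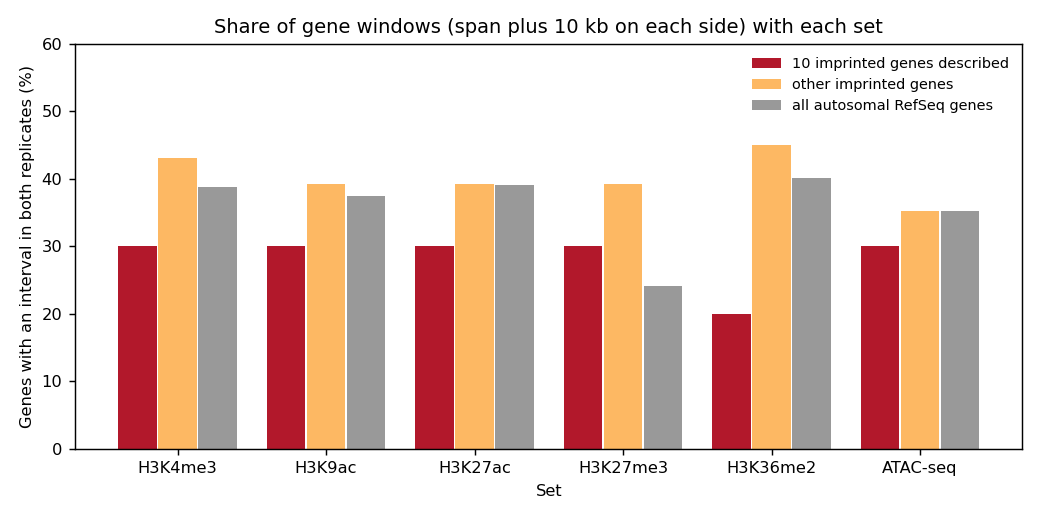
Percent of genes (vertical axis, from 0) with an interval of each set (horizontal axis) in both replicates within the gene span plus 10 kb, for the 10 genes described, 51 other imprinted genes and all autosomal RefSeq genes. The 10 genes stand at or below 3 of 10 in every set, below the background except for H3K27me3, where 3 of 10 is near 24.2%. That H3K27me3 count includes Meg3, whose intervals share 0 bp between replicates, and Airn, where the mark lies only in the flank.

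The spans of 7 genes of that list touch the windows of the 10 genes. Intervals were counted in the own windows of these genes, which can reach beyond those of the 10. Igf2r, Kcnq1 and Rtl1, whose span overlaps that of Meg3, had intervals in both replicates, as did Usp29, whose only interval was H3K4me3 over 0.22 and 0.211 kb far inside its span. Zim1, Snurf and Gnasas1 had none. Active marks and H3K27me3 in the same window were found in 5 of the 51 (9.80%), Kcnq1, Magel2, Copg2, Sfmbt2 and Ddc, against 5.25% of all genes. Contact between them was found in 0, against 0.304% of all genes. Contact of an active mark with H3K36me2 was found in 8 of 51 (15.7%), near the 16.0% of all genes. No list held an interval in 6 of the 51 windows (11.8%), fewer than the 23.9% of all genes. The 3 of 10 of the genes described were near the share of all genes, and no test was made.

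The libraries allowed these calls with unequal certainty. H3K27me3 had 46015 and 38014 intervals over 259 and 297 Mb, so replicate 2 had fewer and wider ones, and the H3K27me3 calls at Meg3, Dlk1 and Igf2 were those that differed between replicates. The other sets had between 17519 intervals (ATAC-seq, replicate 1) and 40826 (H3K36me2, replicate 2). The lists carry no read counts, so sequencing depth is unknown and a missing interval does not show that a mark was absent. As a check of the cell type, H3K4me3 marked the start of 5 of 5 T lineage genes with a start in the table (Cd3e, Cd3g, Lck, Tcf7 and Ptprc), 0 of 3 B lineage genes, 0 of 2 myeloid genes and 1 of 2 erythroid or fibroblast genes (Col1a2).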

How the data were processed

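Genes and list members were chosen with earlier results of these data known. Per the labels and the methods, the authors aligned reads to GRCm38 with STAR 2.5, kept unique alignments, treated duplicates with Picard, and called intervals per replicate against the input, with MACS2 for H3K4me3, H3K9ac and H3K27ac and Epic for H3K27me3 and H3K36me2. ATAC-seq intervals were also called with MACS2. The tool names and build are those of the submitters' processing notes, apart from Epic. The deposited lists give the chromosome, start and end of each interval in base pairs, with no score, count or p-value, and the authors applied no further normalization to these positions. Broad intervals lie on bins of 200 bp. The study calls the replicates technical, so the spread between them may be technical.

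Gene spans and starts came from RefSeq GRCm38.p6, and exon positions were not used here. A gene counted as marked where its window (span plus 10 kb) or start region (3 kb upstream to 2 kb downstream) shared at least 1 bp with an interval in both replicates. Contact required base pairs of both marks found in both replicates. All 10 genes were described, with other imprinted genes named where they touch these windows or where an active start had H3K27me3 in its window. Counts were compared with those of all autosomal RefSeq genes, and no test was made. The joining of sites across 1 kb, the overlap per replicate, the share of an interval downstream of a start and the lengths of stretches without intervals, as well as the coverage without Snrpn, were added after the data were seen. Python 3.11.15 with numpy 2.4.6 and pandas 2.3.3 was used. The counting was checked on simulated data, and it gave the same result as bedtools 2.31.1 in all 594648 comparisons of a gene window with 1 of the 12 lists.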

Additional observations from a re-analysis of the deposited data

How the results depend on the processing

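Of 120 values recomputed under other settings (an interval in either replicate, 1 replicate alone, an overlap of 200 bp, intervals of at least 500 bp, no flank, a flank of 50 kb, 1 kb on each side of a start, and, added after the data were seen, coverage without the Snrpn window), 102 stayed within 1.5 times the count reported or within 1 SD, and 18 moved. With a flank of 50 kb, H3K4me3, H3K9ac, H3K27ac and ATAC-seq were each found at 5 genes, H3K27me3 at 7, H3K36me2 at 4, active marks with H3K27me3 at 4 and active marks in contact with H3K36me2 at 2, and H3K27me3 covered 7.90% of the windows. The active marks added were those near H19 and Dlk1. Shares of all genes were computed only for flanks of 10 kb and intervals in both replicates. Counts under the other settings therefore have no background, and wider windows can raise the share of any gene. With an interval in either replicate, H3K27me3 was found at 5 genes and covered 7.48%, and active marks touched H3K36me2 at 2 genes. Without a flank, active marks with H3K27me3 were found at 0 genes, since the H3K27me3 beside Airn lies outside it, and H3K27me3 covered 2.96%. Leaving out a replicate gave contact with H3K36me2 at 2 genes either way, Airn and Kcnq1ot1, and the H3K27me3 coverage ranged from 3.60% to 6.25%. With 2 replicates, each lies within 1 SD of their mean whatever its value. The coverage values of a single replicate therefore could not move. Neither could the values of H3K27me3 or H3K36me2 alone at the limit of 500 bp, as the narrowest of these intervals had 1799 bp. The place of all these values among the 102 says nothing about stability. Without the Snrpn window, H3K27me3 covered 9.12% and H3K36me2 18.5% of the remaining windows, since that window holds no interval. No paired analysis was possible because the results come from no test. Without scores or read counts, a stricter call threshold could not be set, and depth limits every statement on a missing interval.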

Other observations

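The stretches free of any interval of the 12 lists reached beyond the windows of the unmarked genes H19, Peg3 and Snrpn. These were chosen here for holding none, so the lengths are a description. The stretch around Snrpn was 3044.801 kb long, from 59269000 to 62313800 on chromosome 7, for a window of 487.683 kb. It held 246 RefSeq genes, of which 3 were protein-coding (Snrpn, Snurf and Gm51483) and 18 were named as Snord genes, the small nucleolar RNAs. The authors kept unique alignments, and the part that repeated sequence or assembly gaps play in this stretch was not tested. Around Peg3 the stretch was 633.387 kb long, and it held 14 protein-coding genes, among them Zim1, several zinc finger genes and 8 olfactory receptor genes. H19 lay in a stretch of 72.201 kb. Dlk1 and Igf2 had no interval within the gene span, but their stretches ended on 1 side inside the window, at an H3K27me3 interval. That of Dlk1 was 25.473 kb long. Igf2 and Ins2, the gene of insulin, shared a stretch of 41.801 kb.

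Of the other imprinted genes, 2 had an active start and H3K27me3 elsewhere in the window in both replicates. Copg2, the gene of a coat protein complex subunit that overlaps the end of Mest, had H3K4me3 over 1.448 and 1.379 kb and H3K27me3 over 5.415 kb in both replicates. Sfmbt2, which encodes a Polycomb group protein, had H3K4me3 over 1.838 and 2.004 kb, and H3K27me3 over 0.16 kb in replicate 1 and 10.412 kb in replicate 2. The replicates thus had the same covered length at Copg2 and differed widely at Sfmbt2, but only inside the windows. The H3K27me3 intervals at Copg2 and that of replicate 1 at Sfmbt2 reached past the window edge and were cut there. The lengths therefore do not compare whole domains. H3K36me2 covered 56.987 and 53.392 kb of the Copg2 window and 32.592 and 58.187 kb of the Sfmbt2 window.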
